A study of Homo sapiens with 6 samples.

Results

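The genes of the interferon and DNA-sensing pathways were followed in COV434 cells, an immortalized human line that the sample labels describe as granulosa cells (GCs) of WT genotype. The list held 42 genes named by symbol for their place in these pathways, chosen with earlier results of these data known, and 40 of them had values among the 16798 genes of the core table, with RIGI entered under its older symbol DDX58. AIM2 and IFITM1 were not analysed here. By role, the 40 genes comprised 7 sensors, adaptors and the nuclease TREX1, 6 transcription factors, 4 genes of the type I interferon receptor and its kinases, 19 interferon-stimulated genes (ISGs) and 4 genes of antigen processing. Bulk RNA-seq of total RNA was available for 3 control samples and for 3 samples exposed to 15 µM 4HC for 24 h. 4HC is a pre-activated form of the alkylating drug cyclophosphamide (CTX) that does not need the liver to become active. No agent or vehicle is named for the controls, all samples share 1 cell line, and the sources do not say whether the 3 replicates of a condition were grown as separate cultures. The p-values below therefore measure the spread between these samples, which may be technical.

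Double-stranded DNA in the cytosol is bound by cGAS, whose cyclic dinucleotide product activates STING1, while IFI16 also binds DNA and TREX1 degrades it. Double-stranded RNA is bound by RIGI and IFIH1 (MDA5), which signal through MAVS on the mitochondria. Both routes converge on IRF3 and IRF7, which switch on the genes of type I interferons. Secreted interferon binds the receptor of IFNAR1 and IFNAR2, whose kinases JAK1 and TYK2 phosphorylate STAT2. STAT2 and IRF9 act in the factor ISGF3, which binds the interferon-stimulated response element (ISRE) in the promoters of ISGs. Many ISGs also have a low constitutive level in cells that have met no interferon, and DNA-damaging agents are studied for their ability to set off this pathway.

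The core letters of the ISRE, a GAAA followed after 2 bases of any kind by another GAAA, were searched on both strands in the RefSeq promoters of GRCh38.p14, which reach from 250 bases before to 50 bases after the annotated start of transcription. A promoter was matched for 29 of the 40 genes. The core was present in 16 of these 29 promoters (55.2%), beside 3.65% of the 27305 promoters of the same length in the RefSeq table. It was found in 12 of 14 ISG promoters, 3 of 4 antigen-processing promoters and 1 of 5 sensor promoters, that of IFIH1, and in none of the 3 promoters of transcription factors and none of the 3 of the receptor and kinases. The 8 stretches shown next were chosen because they belong to the genes that the results turn on, or to genes with the same letters that did not pass the test or had almost no reads. Each is written 5′ to 3′ on the strand of its gene with the core in capitals (TTTC in the same arrangement is the core read from the other strand, and longer runs of capitals are overlapping matches).
ISG15 (chr1:1013374-1013409, plus strand): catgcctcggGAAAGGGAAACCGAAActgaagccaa
OAS3 (chr12:112938321-112938481, plus strand): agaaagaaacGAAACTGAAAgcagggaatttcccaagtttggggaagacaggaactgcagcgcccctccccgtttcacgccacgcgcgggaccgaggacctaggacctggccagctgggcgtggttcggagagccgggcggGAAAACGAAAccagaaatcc
TAP1 (chr6:32853813-32853848, minus strand): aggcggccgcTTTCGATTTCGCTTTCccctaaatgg
IFIT5 (chr10:89414513-89414583, plus strand): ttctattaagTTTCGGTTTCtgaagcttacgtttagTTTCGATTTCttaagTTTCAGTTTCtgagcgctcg
TAP2 (chr6:32838778-32838807, minus strand): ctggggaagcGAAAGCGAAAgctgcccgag
EIF2AK2 (chr2:37156967-37156996, minus strand): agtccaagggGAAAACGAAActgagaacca
B2M (chr15:44711363-44711398, plus strand): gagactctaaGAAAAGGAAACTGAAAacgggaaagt
BST2 (chr19:17405735-17405770, minus strand): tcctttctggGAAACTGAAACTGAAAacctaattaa

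ISG15, OAS3 and TAP1, which were higher in 4HC, TAP2 and IFIT5, which were lower, EIF2AK2 and B2M, which did not pass the test, and BST2, which had at most 2 counts in any sample, thus carried the same core. Sorted by the test described below, the core was present in 3 of 6 promoters of genes higher in 4HC, 2 of 3 of genes lower in 4HC, 6 of 12 of genes not passing the test and 5 of 8 of genes with too few counts. The GAS element, known from genes that respond to interferon gamma, was searched as TTCNNNGAA, and was found in the promoters of IRF1, IRF9, IFI27, IFI35, OAS1 and BST2, 6 of 29 (20.7%), beside 7.88% of all promoters, and a match shared bases with an ISRE core in IFI27 and BST2. The p53 consensus of adjoining decamers was found in 0 of 29 promoters, and in 5 of all 27305 promoters (0.0183%). A match this rare could hardly occur among 29 promoters, so its absence says nothing on p53 sites in these genes. These matches describe letters in a window and say nothing on whether a factor was bound.

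**Figure D1:**
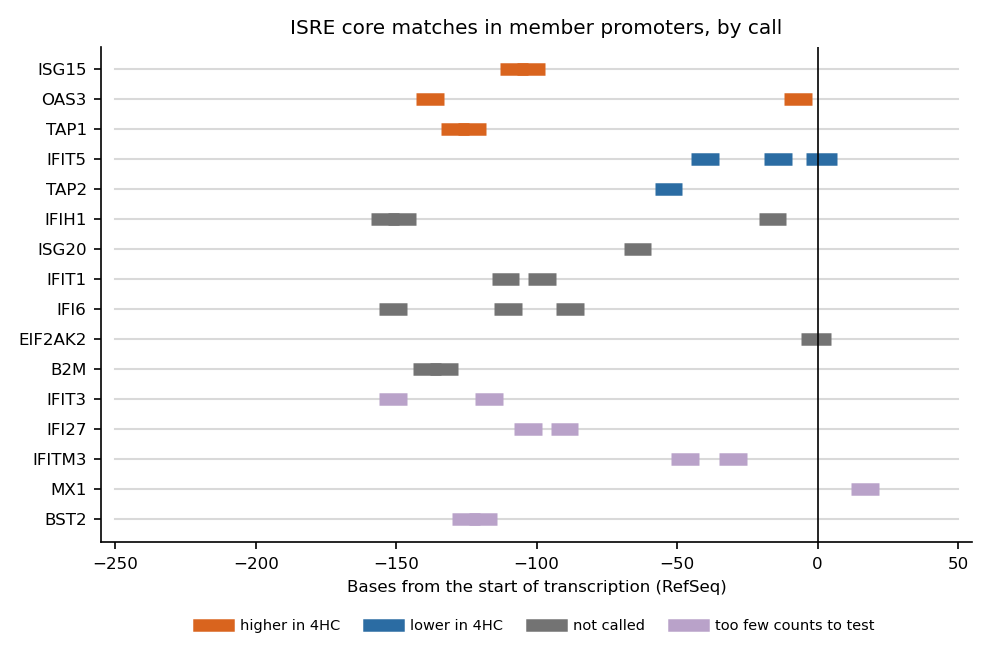
Position of each ISRE core match (bar) in the promoters of the 16 genes that held one, in bases from the RefSeq start of transcription, coloured by the result of the comparison of 3 4HC with 3 control samples. Matches lie before the start in most promoters, and genes higher in 4HC, lower in 4HC, not passing the test and with too few counts all hold them.

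Total expected counts per sample lay between 16133786 and 16702316, so that a gene with 0 counts may still have had up to 0.18 to 0.186 CPM, the level of 3 counts. CPM is the count scaled to the library total, here adjusted with edgeR's TMM factors. The labelled cell type was checked against its markers. Of 12 granulosa markers with values, AMH (5.34 TPM in control), INHA (1.18 TPM), HSD17B1 (22.5 TPM) and WT1 (133 TPM) were expressed. The defining genes FOXL2, FSHR and CYP19A1 were at or near 0, with at most 0.11 TPM in any sample. INHBA (0.177 TPM in control), INHBB (0.0333 TPM), STAR (0.0267 TPM), NR5A1 (0.0433 TPM) and GATA4 (0.03 TPM) were also under 1 TPM. TPM is scaled to transcript length as well as to the library, so that levels of different genes can be compared in it. Leukocyte markers (6 of 9 with values), which could bring interferon genes of other cells, summed to 2.86 to 3.33 TPM in control and 3.09 to 4.41 TPM in 4HC. CD68 was the 1 expressed marker among them, at 1.67 TPM in control and 2.03 TPM in 4HC. PTPRC was at 0.553 TPM and NKG7 at 0 in control, and 0 of the 2 markers that could be tested passed the test. Fibroblast markers (5 of 5 with values) summed to 53.2 to 57.6 and 53.1 to 56.0 TPM. Among them, LUM was at 43.2 and DCN at 11.5 TPM in control, both above AMH and INHA. Endothelial markers (3 of 3) summed to at most 0.06 TPM, and epithelial markers (4 of 4) to 6.1 to 8.4 and 7.55 to 7.9 TPM. None of the markers of these types that could be tested passed the test either. Of the SWI/SNF genes also looked at, SMARCA4 was at 7.56 TPM in control and SMARCA2 at 0.03 TPM. The granulosa markers summed to 159 to 167 TPM in control and 132 to 138 TPM in 4HC, where WT1 was lower, and the part of this shift in the results below was not tested.

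Which of the genes were expressed in control cells was asked first. A mean of at least 1 TPM over the 3 controls, with enough counts for a test, was reached by 24 of the 40 genes (60.0%), beside 67.0% of all genes in the table. The 24 comprised 3 of 7 sensors and adaptors, 5 of 6 transcription factors, all 4 genes of the receptor and kinases, 8 of 19 ISGs and all 4 antigen-processing genes. B2M, the light chain of MHC class I, was the most abundant at 1050 ± 17.2 TPM (SD, n = 3), followed by the ubiquitin-like modifier ISG15 at 203 ± 8.07 TPM and the peptide transporter subunit TAP1 at 117 ± 4.56 TPM. At the other end of the expressed genes were OAS3, a synthetase of 2′-5′ oligoadenylates, at 4.57 ± 0.415 TPM and the RNA sensor RIGI at 3.07 ± 0.529 TPM. Among the other genes, ISG20 and IFIT2 had enough counts for a test but stayed under 1 TPM, and 14 genes had too few counts, with a maximum of 12 counts in any sample and at most 3 in every sample for 7 of them.

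**Figure D2:**
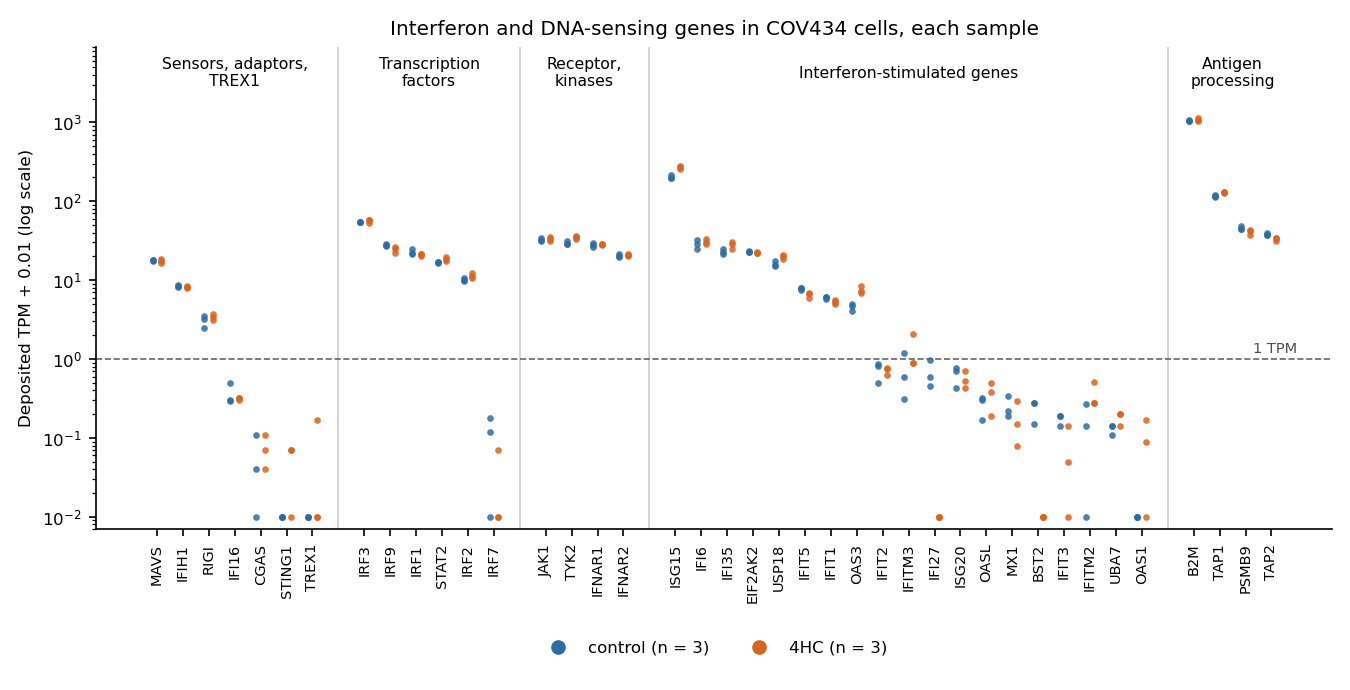
Deposited TPM plus 0.01 of the 40 genes in each of the 6 samples (log scale), grouped by role and ordered by control level, with a dashed line at 1 TPM. B2M lies near 1050 TPM and ISG15 near 203 TPM in control, whereas CGAS, STING1 and TREX1 lie at the bottom of the scale in both groups.

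Of the DNA-sensing genes on the list, CGAS, STING1 and IFI16 were close to the floor of detection. CGAS, the sensor of cytosolic DNA, had 1, 0 and 3 counts in control and 2, 1 and 3 counts in 4HC. STING1, its adaptor, had 0 counts in each control, which allows up to 0.183 CPM, and 0, 1 and 1 counts in 4HC. IFI16, a nuclear and cytosolic DNA sensor, had 7, 12 and 8 counts in control and 8, 8 and 8 in 4HC. The groups overlapped for all 3 genes, which had too few counts for a test, and no fold change can be given for CGAS and STING1, which were at or under 3 counts in every sample. TREX1 was listed at 0 counts in 5 samples and at 1.41 in 4HC replicate 1, but it shares its locus with ATRIP, a partner of the ATR kinase, which had a mean of 308 counts in control and 371 in 4HC, and reads of the pair may have been divided between them.

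The listed genes of the RNA-sensing arm, RIGI, IFIH1 and MAVS, were expressed, and no difference was found in them. MAVS (chr20:3846834-3876472, GRCh38), the adaptor, had 130.0, 133 and 129 CPM in control and 136, 124 and 128 in 4HC. IFIH1 had 17.3, 17.7 and 18.4 CPM in control and 16.8, 17.4 and 17.9 in 4HC, and RIGI had 8.94, 6.89 and 9.59 CPM in control and 9.48, 8.82 and 10.4 in 4HC. The groups overlapped for each of them. The log2 fold change of 4HC over control was -0.02 for MAVS (95% interval -0.10 to 0.06), -0.03 for IFIH1 (-0.18 to 0.12) and 0.17 for RIGI (-0.05 to 0.40). For the sensors and adaptors, 0 of the 3 tested passed an adjusted p of 0.05, beside a background of 36.4% of all genes tested with edgeR. An unadjusted p under 0.05 was reached by 0 of 3 with edgeR, DESeq2 or limma. With only 3 genes tested, these counts are not a result about the sensors. The intervals leave room for a rise of RIGI of up to 0.40 on the log2 scale.

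Over all roles, 26 of the 40 genes could be tested with edgeR's quasi-likelihood test among 12368 genes in all, with Benjamini-Hochberg adjustment over all of them. Of the 26, 10 passed an adjusted p of 0.05 (38.5%), beside a background of 36.4% of all genes tested, a share so close to it that the count is not a result about these genes. The 10 comprised 7 genes higher in 4HC (background 19.2%) and 3 lower (background 17.1%), and the median log2 fold change of the 26 was 0.04, beside 0.00 over all genes tested. The samples of 4HC and control did not overlap in 13 of the 26 genes (7 higher, 6 lower), where the background was 45.3% of all genes tested, 23.4% higher and 21.9% lower. At the fold change of at least 2 with an unadjusted p under 0.05 that the study used for DEGs, 0 of 26 genes passed with edgeR (background 1.15%) and 0 with DESeq2 or with limma on the TPM values, although 12 of 26 had an unadjusted p under 0.05 with edgeR. The background of 1.15% (142 genes) is that of the edgeR test here. The study reported a far larger number of DEGs at the same stated threshold, which was not reached with edgeR here, and the reason was not tested. In bulk RNA, fewer cells that express a gene and less RNA of it per cell cannot be told apart.

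**Figure D3:**
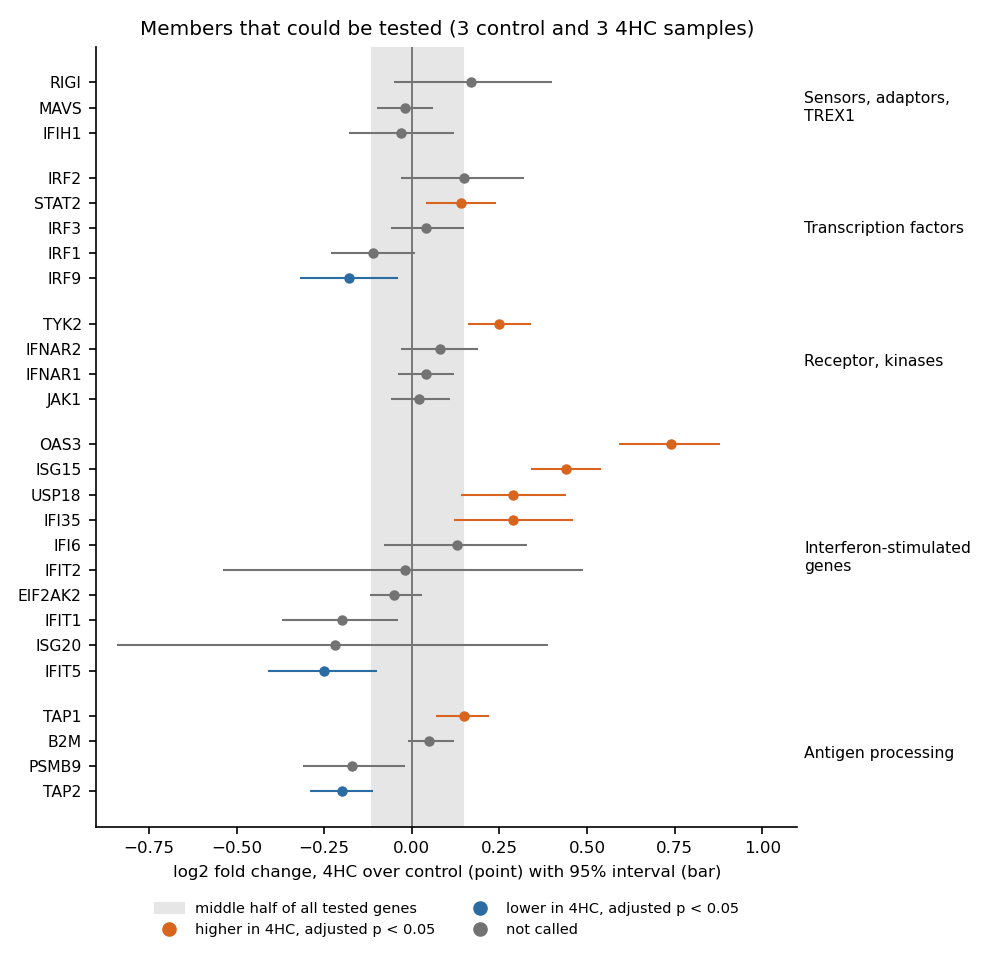
Log2 fold change of 4HC over control with its 95% interval for the 26 genes tested (3 samples per group), grouped by role and coloured by the test at an adjusted p of 0.05, with the grey band spanning the middle 50% of all genes tested. OAS3 at 0.74 and ISG15 at 0.44 lie farthest to the right. The intervals of RIGI, IFIH1 and the adaptor MAVS include 0, and no DNA sensor could be tested.

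Among the ISGs, 4 of the 10 tested were higher in 4HC (background 19.2%), 1 was lower (background 17.1%) and 5 did not pass the test, and the median log2 fold change was 0.05. On the log2 scale the difference was greatest for OAS3, whose product activates the ribonuclease RNase L when it meets double-stranded RNA. OAS3 had 16.5, 20.0 and 18.8 CPM in control and 33.9, 30.0 and 28.1 CPM in 4HC, so that the lowest 4HC sample lay above the highest control. The mean went from 18.4 ± 1.80 in control to 30.7 ± 2.97 CPM under 4HC, a rise of 0.74 on the log2 scale (SE 0.0732, adjusted p = 5.97e-12 by edgeR's quasi-likelihood test). Most OAS3 reads were assigned to the RefSeq transcript NM_006187, with 218 ± 49.9 counts in control and 375 ± 23.6 in 4HC and no overlap between the groups. The groups overlapped for XM_005253889 (54.7 ± 58.7 and 118 ± 78.3 counts) and for XM_017019363, which went the other way (28.8 ± 47.3 and 9.39 ± 16.3). Transcript counts are estimates from shared reads and were not tested. The neighbouring OAS1, of the same enzyme family, had 0 counts in each control and 1, 2 and 0 in 4HC.

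ISG15 and the genes that attach and remove it were unequal in level. ISG15 (chr1:1013497-1014540, GRCh38), whose start lies 88 to 123 bases after the stretch printed above, had 44.1, 47.6 and 43.7 CPM in control and 63.6, 62.2 and 58.1 in 4HC. The 4HC samples all lay above the controls, and ISG15 rose from 45.2 ± 2.15 to 61.3 ± 2.84 CPM (log2 fold change 0.44, SE 0.0521, adjusted p = 8.93e-10, edgeR). USP18 (chr22:18115423-18177397), the protease that removes ISG15 from proteins and dampens the interferon receptor, had 15.9, 16.7 and 18.6 CPM in control and 19.7, 22.1 and 21.1 in 4HC. These groups did not overlap either, and USP18 rose by 0.29 on the log2 scale (SE 0.0764, adjusted p = 0.00188, edgeR), with the caution that its near-copy USP41 could take or give reads. UBA7, the E1 enzyme that activates ISG15, was almost silent with 4, 3 and 4 counts in control and 6, 4 and 6 in 4HC, too few for a test. Of the enzymes outside the 42 genes, the E2 enzyme UBE2L6 had 19.7 ± 0.895 CPM in control and 20.6 ± 1.52 in 4HC and did not pass the test (adjusted p = 0.553, edgeR), and the E3 ligase HERC5 rose from 0.897 ± 0.0933 to 2.03 ± 0.270 CPM (log2 fold change 1.18, SE 0.261, adjusted p = 2.73e-04, edgeR). TRIM25, another E3 ligase of ISG15, went the other way, from 126 ± 3.75 to 115 ± 1.61 CPM (log2 fold change -0.13, SE 0.0396, adjusted p = 0.00576, edgeR). HERC5 lay under 1 TPM in control (0.437 TPM), and HERC5, UBE2L6 and TRIM25 were named after their values were seen, HERC5 being the 1 gene past a fold change of 2 among the 64 tested of the further list described last.

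IFI35, a cytosolic protein induced by interferon, had 14.3, 12.5 and 12.8 CPM in control and 17.3, 16.7 and 14.5 in 4HC. It rose by 0.29 on the log2 scale (SE 0.0873, adjusted p = 0.00672, edgeR), but the gap between the highest control and the lowest 4HC sample was small, and without 4HC replicate 1 the adjusted p was 0.0565. IFIT5 (chr10:89414568-89420997), a protein that binds foreign RNA, went the other way, with 17.8, 19.0 and 19.1 CPM in control and 14.3, 16.6 and 16.1 in 4HC. It fell by 0.25 on the log2 scale (SE 0.0790, adjusted p = 0.00991, edgeR), and this call was lost without 4HC replicate 1 (adjusted p = 0.0753) and with DESeq2 (adjusted p = 0.0526). Its neighbour IFIT1, which binds viral RNA caps, had 15.9, 15.0 and 15.7 CPM in control and 13.3, 12.8 and 14.3 in 4HC. The IFIT1 groups did not overlap, yet the difference of -0.20 on the log2 scale (95% interval -0.37 to -0.04) did not pass the adjustment (adjusted p = 0.0540, edgeR), and it passed with DESeq2's size factors (0.0476) and without 4HC replicate 3 (0.0345). The IFIT genes lie in the annotated span of LIPA, a lysosomal lipase with a mean of 2550 counts in control and 2230 in 4HC, and reads shared with it could not be separated here.

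The other ISGs tested did not pass. EIF2AK2, the kinase PKR that halts translation on double-stranded RNA, was the ISG with the most reads, at 143 CPM in control and 138 CPM in 4HC (log2 fold change -0.05, 95% interval -0.12 to 0.03). IFI6, a small membrane protein, had a log2 fold change of 0.13 (-0.08 to 0.33). IFIT2 and the exonuclease ISG20, with 12 to 28 counts in each sample, had wide intervals of -0.54 to 0.49 and -0.84 to 0.39, so that changes inside these bounds were not detectable at this depth.

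Many of the genes that most sharply mark an interferon response in other cells were almost without reads. MX1, a dynamin-like GTPase that blocks viruses, had 9.33, 6.19 and 5 counts in control and 2.02, 7.97 and 4.04 in 4HC. IFIT3 had 4, 4 and 3 counts in control and 1, 0 and 3 in 4HC, and OASL, an OAS relative without synthetase activity, had 4, 4 and 2 against 8, 7 and 2. The groups overlapped for MX1, IFIT3 and OASL. IFI27 had 1, 2 and 3 counts and BST2, which tethers budding virions, 1, 2 and 2 counts in control, and both were at 0 in each 4HC sample, where 0 counts allow up to 3. IFITM2 and IFITM3, near-identical membrane proteins that hinder viral entry and may share reads, had at most 3.79 and 7.21 counts in any sample. No fold change was read from counts of this size.

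**Figure D4:**
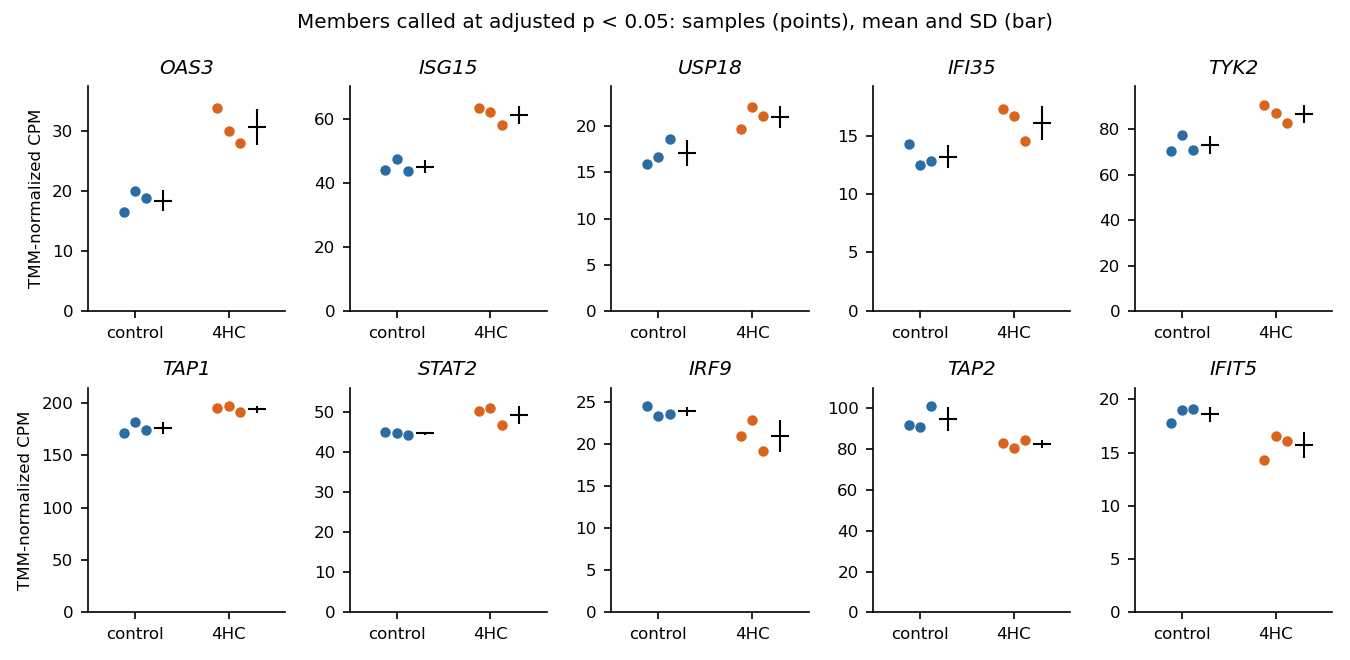
TMM-normalized CPM of the 10 genes with an adjusted p under 0.05 in each control and 4HC sample (points, n = 3 per group), with the mean (horizontal tick) and SD (vertical bar) and axes that start at 0. The groups do not overlap in any of the 10 genes, which were selected by the test in these same samples, so the separation adds no support. Among all genes tested, 45.3% did not overlap. OAS3 has the greatest ratio of the group means (18.4 against 30.7 CPM).

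The transcription factors were expressed except for IRF7 and differed little. IRF3, which acts directly downstream of the sensors, had 41.4, 42.8 and 42.0 CPM in control and 44.2, 44.6 and 41.2 in 4HC. The groups overlapped, with a log2 fold change of 0.04 (95% interval -0.06 to 0.15), and the overlapping gene BCL2L12 had a mean of 699 counts in control and 844 in 4HC. IRF7, the factor that amplifies the response and is itself an ISG, had 0, 2 and 1 counts in control and 0, 0 and 1 in 4HC. IRF1 and IRF2, which act on ISRE-like sites as activator and mostly as repressor, had log2 fold changes of -0.11 (-0.23 to 0.01) and 0.15 (-0.03 to 0.32) and did not pass the test, although the IRF1 groups just failed to overlap.

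The ISGF3 subunits STAT2 and IRF9 moved in opposite directions by small amounts. STAT2 (chr12:56341597-56360161) had 45, 44.9 and 44.3 CPM in control and 50.2, 51.1 and 46.7 in 4HC, a rise of 0.14 on the log2 scale (SE 0.0527, adjusted p = 0.0309, edgeR). IRF9 had 24.5, 23.4 and 23.6 CPM in control and 21.0, 22.9 and 19.2 in 4HC, and fell by 0.18 (SE 0.0706, adjusted p = 0.0382, edgeR). The groups did not overlap for either gene, but both calls were weak. The STAT2 call was lost when any one of 5 samples was left out (all except 4HC replicate 3, with an adjusted p of up to 0.154) and with DESeq2 (0.110) or limma on log2(TPM + 1) (0.130). The IRF9 call was lost without control replicate 1 or 3 or 4HC replicate 1 or 3 (adjusted p of up to 0.225), with DESeq2 (0.128) and with library size as the only scaling (0.0697).

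Of the receptor and its kinases, TYK2 passed the test. TYK2 (chr19:10350528-10380572), the kinase held by IFNAR1, had 70.6, 77.6 and 71.1 CPM in control and 90.6, 87.1 and 82.9 in 4HC. All 4HC samples lay above all controls, and it rose by 0.25 on the log2 scale (SE 0.0464, adjusted p = 2.06e-05, edgeR). Its main transcript, NM_003331, held 84.9% of its reads in control and 81.7% in 4HC. The receptor chains and JAK1 were expressed at 20.2 to 32.8 TPM in control, and none of the 3 passed the test. Their log2 fold changes were 0.04 for IFNAR1 (95% interval -0.04 to 0.12), 0.08 for IFNAR2 (-0.03 to 0.19) and 0.02 for JAK1 (-0.06 to 0.11), with overlapping groups.

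In antigen processing, the paired subunits of the TAP transporter, which carries peptides into the endoplasmic reticulum, differed in opposite directions. TAP1 had 171, 182 and 174 CPM in control and 195, 197 and 191 in 4HC, and rose by 0.15 on the log2 scale (SE 0.0363, adjusted p = 0.00117, edgeR). TAP2 had 92.0, 91.0 and 101 CPM in control and 82.9, 80.7 and 84.3 in 4HC, and fell by 0.20 (SE 0.0449, adjusted p = 3.45e-04, edgeR). Neither pair of groups overlapped, and both calls held in all 6 removals of a sample and all 8 other settings tried. PSMB9, an immunoproteasome subunit whose start lies 488 bases from that of TAP1 on the other strand of chromosome 6, had 20.6, 22.7 and 20.3 CPM in control and 19.9, 17.4 and 19.4 in 4HC. The PSMB9 groups did not overlap, and the difference of -0.17 (95% interval -0.31 to -0.02) did not pass the adjustment (adjusted p = 0.0697, edgeR), while it passed with limma on log2(TPM + 1) (0.0441) and without 4HC replicate 1 (0.0435). B2M had 458, 454 and 438 CPM in control and 461, 453 and 486 in 4HC, overlapping, with a log2 fold change of 0.05 (-0.01 to 0.12). Most reads of TAP1 were divided equally over 6 reference copies of its main transcript on alternative haplotype scaffolds of this region (447 ± 13.7 counts each in control and 499 ± 14.4 in 4HC), so that only their sum is informative.

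Sensors and ISGs were set side by side as groups. Of the sensors, adaptors and TREX1, 3 of 7 could be tested and 0 passed (beside the background of 36.4%). Their log2 fold changes went from -0.03 to 0.17, with a median of -0.02 and a median absolute value of 0.03. Of the ISGs, 10 of 19 could be tested and 5 passed (50%, beside the background of 36.4%), with log2 fold changes from -0.25 to 0.74, a median of 0.05 and a median absolute value of 0.24, where that of all genes tested was 0.13. The ISGs thus spread to both sides of a median near that of all genes. IFIH1 and the adaptor MAVS lay near 0, and RIGI had an interval that included 0. These 3 belong to the RNA-sensing arm, and CGAS, STING1, IFI16 and TREX1 had too few counts for a test. The difference between the groups was not tested, and with 3 and 10 genes tested neither count is a result about its role. The ISG values include ISG20 and IFIT2, whose intervals were wide. Of the ISGs that passed, the calls of OAS3, ISG15 and USP18 held in all 6 removals of a sample and all 8 other settings tried.

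Other genes of the same pathways were taken from a further list of 100, of which 87 had values and 64 could be tested. Of the 64, 15 were higher and 8 lower in 4HC (35.9% together, at the background of 36.4% of all genes tested, of which 19.2% were higher and 17.1% lower), with a median log2 fold change of 0.08. The count is therefore not a result about this list, and the genes named next describe single members of it. The called genes with at least 5 CPM and the greatest differences were all higher. They included RNASEH2A, the catalytic subunit of the nuclease that removes ribonucleotides from DNA, with 42.1 ± 2.56 CPM in control and 59.5 ± 1.07 in 4HC (log2 fold change 0.50, adjusted p = 3.40e-11, edgeR), and UNC93B1, the chaperone of endosomal Toll-like receptors (0.50). The others were the lysosomal thiol reductase IFI30 (log2 fold change 0.57), the helicase HELZ2 (0.38), the nuclear body protein PML (0.37), the shared cytokine receptor chain IL10RB (0.35), the MHC class I heavy chain HLA-B (0.29) and the mitochondrial NLRX1 (0.28). TBK1, the kinase that phosphorylates IRF3, rose from 53.5 ± 1.34 to 59.1 ± 1.43 CPM (log2 fold change 0.14, adjusted p = 0.0182, edgeR). IFNB1 was not analysed here, and IFNG had 1 count in total in each group.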

How the data were processed

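RNA of 3 control and 3 4HC-treated COV434 samples was compared, with groups taken from the labels. Per the labels, reads were filtered with SOAPnuke, HISAT2, Bowtie2 and RSEM 1.3.1 were among the tools, and GRCh38.p13 was the build. The authors deposited an expected count (RSEM's estimate, 85.5% whole numbers) and a TPM for each gene and sample. Columns of the authors' own comparison (fold changes, p-values) and FPKM were not used.

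The deposited expected counts were rounded. In edgeR 4.0.16 (R 4.3.3) they were scaled with TMM (factors 0.9928 to 1.012), filtered with filterByExpr and compared by the quasi-likelihood method, the model holding condition alone, with Benjamini-Hochberg adjustment over 12368 genes and calls at an adjusted p under 0.05. The study used DESeq2, and here DESeq2 1.42.0 was an alternative, beside its size factors in edgeR, library size only, no filter, at least 10 counts in every sample, a replicate block, limma 3.58.1 on log2(TPM + 1) and log2(TPM + 0.1), and each sample left out in turn. The biological coefficient of variation was 0.0277. Replicates of a group differed by more than sampling noise (chi-square of 1.70 to 2.46 per gene). The edgeR test was also run on simulated counts, with means and dispersions taken from these samples.

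The genes, their roles and the other lists were chosen with earlier results of these data known. Values per sample were given for genes passing the test and for CGAS, STING1, IFI16, IRF3, IRF9, STAT2, ISG15, IFIT1, MX1 and B2M, and up to 8 pathway genes were named by size of change among those called at 5 CPM or more, with TBK1 and IFNB1 in any case. A further gene of that rule is not reported here. The values of MAVS, IFIH1, RIGI, PSMB9 and of the genes with few counts were added to show each role. Promoters came from RefSeq (GRCh38.p14) and were matched by gene ID or symbol. Coordinates of genes that the table places on alternative scaffolds are not given. Counting is not stated to use strand, so overlapping genes are uncertain.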

Additional observations from a re-analysis of the deposited data

How the results depend on the processing

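Limits and alternatives were as follows. Over the 26 genes and all alternatives, 335 log2 fold changes kept their direction and side of the threshold, 18 kept their direction and lost their call, 5 gained one and 5 changed sign, all of the last in genes that passed no test. Direction was read at 2 decimals, and differences of 0.00 after rounding, those of MAVS and IFIT2 with library size only, IFIT2 with limma on log2(TPM + 0.1) and JAK1 without control replicate 2, were counted as kept. Between 7 and 11 of the 26 genes passed over the alternatives. OAS3, ISG15, USP18, TYK2, TAP1 and TAP2 passed in all of them. With DESeq2's size factors 2 ISGs were lower, with DESeq2 0 ISGs and 1 of the 26 genes were lower, and with a sample left out between 0 and 2 ISGs were lower. With no filter on low counts, 2 genes, IFI27 and BST2, passed a fold change of at least 2 with at most 3 counts in any sample, the median log2 fold change was 0.17 for the sensors and 0.12 for the ISGs, and these values include genes at the floor. The ISG median ranged from 0.01 to 0.13 with a sample left out. The log2 fold change of IFIT2 ranged from -0.24 to 0.13, that of JAK1 from -0.02 to 0.07 and that of MAVS from -0.06 to 0.01 with a sample left out. It was positive for IFIT2 without control replicate 1 (0.06), control replicate 2 (0.13) or 4HC replicate 3 (0.07), negative for JAK1 without 4HC replicate 1 (-0.02) and positive for MAVS without 4HC replicate 2 (0.01). The median of all genes tested moved to at most 0.03 under any scaling. The cause of these changes was not tested.

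The labels number the replicates of each group, but deviations of same-numbered samples correlated by only 0.009, 0.069 and 0.03 across genes, so the numbers were not taken as pairs. With the replicate block, 9 of the 26 genes passed, and IRF9 (log2 fold change -0.18, adjusted p = 0.0506, edgeR) was lost, beside 2259 genes higher and 1954 lower in all. Depth limited the 14 genes with at most 12 counts in any sample, and groups of 3 are too small for a check of outlying samples.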

Other observations

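The deposited annotation marks 91 genes of the table as Hallmark interferon alpha response genes and 187 as interferon gamma response genes, lists that were looked at after the data had been seen. Of the alpha list, 62 were tested, 15 were higher and 10 lower in 4HC (40.3% together, beside 36.4% of all genes tested), and the median log2 fold change was 0.06. Of the gamma list, 128 were tested, 24 were higher and 22 lower (35.9%), and the median was -0.01. Both lists share genes with the 42 described above. Without them, 10 of 48 alpha genes were higher and 9 lower, and 18 of 110 gamma genes were higher and 21 lower.

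The reads of STAT2 were divided by the counting program over many transcripts, and some went against the gene. NM_198332 had 141, 135 and 171 counts in control and 48.0, 123 and 76.6 in 4HC, all lower in 4HC, while XM_017019904 had 156, 163 and 129 counts in control and 192, 234 and 174 in 4HC, all higher. The main transcript, NM_005419, had 262 ± 87.4 counts in control and 284 ± 50 in 4HC, with overlapping groups. IRF9 was counted on a pair of reference copies with equal shares, and its transcript NM_001385401 had 29.5 ± 2.63 counts on each copy in control and 18 ± 6.02 in 4HC, without overlap. These transcript counts are estimates from reads that several transcripts share, and no test was run on them.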
